A study of Gossypium hirsutum and Gossypium barbadense with 16 samples.

Results

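Fiber cells of the cotton line TM-1 (*G. hirsutum*) were compared with the epidermal cells beneath them, both taken by laser-capture microdissection (LCM) from ovules at 2 days post anthesis (DPA). This comparison used 4 of the 16 libraries of the series, 2 biological replicates of fiber cells and 2 of epidermal cells, and every gene of the TM-1 table was a member. The table lists 75376 genes, of which 54618 had a value over 0 in at least 1 of its 6 TM-1 libraries and were tested, and 20758 were listed at 0 in all of them. The groups used here were fiber cells of TM-1 at 2 DPA, wild-type epidermal cells of TM-1 at 2 DPA and at 0 DPA, the same cell types and stages of the wild-type line 3-79 (*G. barbadense*), and epidermal cells of the fiberless mutant MD17 (*G. hirsutum* background) at 0 and 2 DPA, each with 2 replicates. Plants were grown in a greenhouse, and the protruding fibers of wild-type ovules at 2 DPA were cut first, with the epidermal layer beneath taken in another cut. Epidermal samples at 0 DPA were the whole top cell layer, so they hold the fiber initials of that stage. The number of ovules or plants in a library is not given in the sources used here.

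A cotton fiber is a seed hair, a single epidermal cell of the ovule that stops dividing, bulges out of the surface around anthesis and then elongates without branching. R2R3 MYB transcription factors are required for this start, as they are for the leaf hairs of Arabidopsis, and auxin acts on it through auxin response factors (ARFs), which bind the promoters of auxin-responsive genes. Upland cotton is an allotetraploid, so most genes exist as a copy on the A subgenome and a homoeologous copy on the D subgenome.

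Values are FPKM, the number of fragments scaled by the mapped fragments of the library and by the length of the transcript. The lowest FPKM of a library are steps of 1 fragment, and the most frequent step ratio against epidermal replicate 2 put the depth of fiber replicates 1 and 2 at 1.97 and 1.14 times, and of epidermal replicate 1 at 1.01 times, that of this library. Read counts were not used here, so the counting error of a gene is unknown. Replicates correlated across genes on the log2(FPKM + 1) scale with r = 0.957 in fiber and 0.943 in epidermal cells, a description in which genes are not replicates. On the first principal component of the 6 TM-1 libraries (48.3% of the variance) the fiber libraries lay at 111 and 112, the epidermal libraries of 2 DPA at -8.46 and -32.7, and those of 0 DPA at -91.8 and -90.2. Epidermal replicate 1 of 2 DPA stood apart on the second component, at -105 against -22.6 for replicate 2. Fewer genes were over 1 FPKM in fiber than in epidermal cells, with 33811 and 33756 in the fiber libraries and 36504 and 38386 in the epidermal libraries of 2 DPA.

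Many more genes were lower than higher in fiber cells. At an adjusted p under 0.05 in limma, a mean over 5 FPKM in the higher cell type and a ratio of means over 1.5, 40 genes were higher in fiber (0.0732% of those tested) and 654 were lower (1.2%), together 1.27% of the genes tested. The median log2 change of all tested genes was -0.12. In all 694 called genes, both fiber libraries lay on the same side of both epidermal libraries, which over all tested genes held for 7432 genes that were higher in fiber (13.6%) and 17190 that were lower (31.5%). Leaving out any of the 4 libraries lost all or nearly all of the reported calls in limma. Such a fit leaves a cell type with a single library and has less to estimate the spread from. Whether the calls rested on a given replicate was therefore not tested. In these 4 fits, 1300 to 1781 genes were higher and 3434 to 3949 lower at an unadjusted p under 0.05 with the same FPKM and ratio limits. The excess of lower genes held under wider limits: 685 genes were higher (1.25%) and 2429 lower (4.45%) at an unadjusted P of 0.01, together 5.7%, and in the orthologs with all 16 libraries in the limma fit 392 were higher (0.92%) and 1843 lower (4.32%) at an adjusted p under 0.05.

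**Figure D1:**
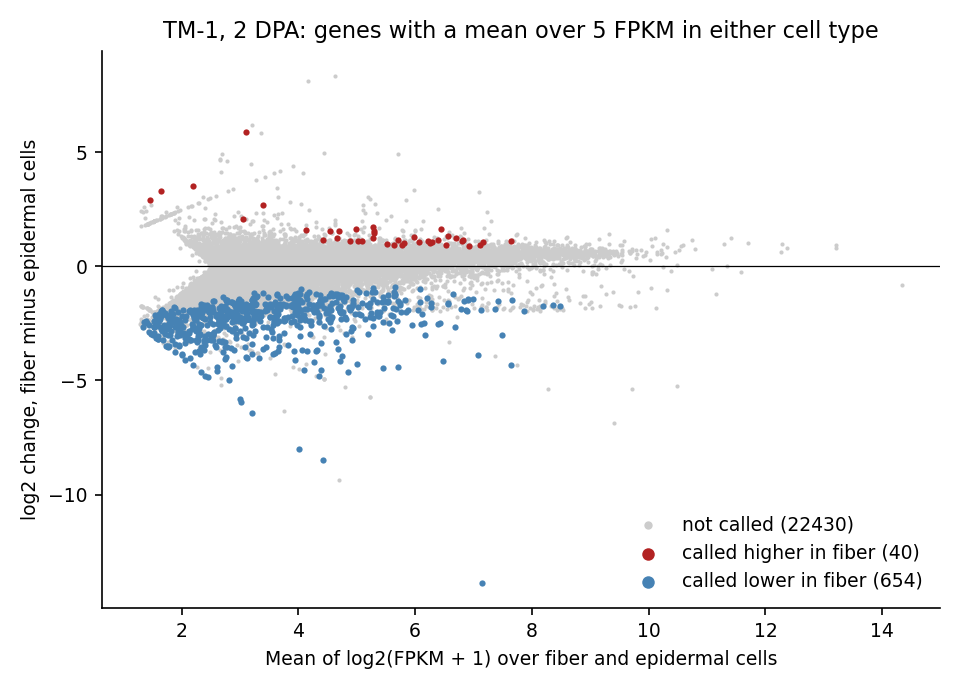
Change of each gene in fiber cells of TM-1 at 2 DPA (vertical axis, log2(FPKM + 1) in fiber minus epidermal cells) by its level (horizontal axis, mean of both cell types). Points are the genes with a mean over 5 FPKM in either cell type, and the 654 genes called lower in fiber spread further from 0 than the 40 called higher.

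The genes lower in fiber also changed more. Leaving out genes listed at 0 in both libraries of a cell type, the median log2 change was 1.15 for the genes called higher in fiber and -2.16 for those called lower. The ratio of mean FPKM was over 4 in 6 of the 40 genes called higher and in 467 of the 654 called lower, and over 10 in 4 and 206 genes. Near-complete loss was also more frequent than near-complete gain. Over 5 FPKM in both fiber libraries and under 1 in both epidermal libraries were 12 genes. The reverse, over 5 FPKM in both epidermal libraries and under 1 in both fiber libraries, held for 156 genes. FPKM is scaled by transcript length, so over 5 FPKM can mean few fragments in a short transcript, and fragments were not counted here. The genes called higher had a median of 70.9 FPKM in fiber and 32.7 in epidermal cells, and those called lower a median of 3.24 FPKM in fiber.

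The direction of change differed with the level of a gene. Among the 8873 genes with a mean between 5 and 10 FPKM in the higher cell type, 32 were higher in fiber (0.361%) and 808 lower (9.11%) at an unadjusted P of 0.01, with a median log2 change of -0.28. Between 100 and 500 FPKM the order turned at this limit, with 221 of 1598 genes higher in fiber (13.8%) and 129 lower (8.07%). The median log2 change of these genes was 0.48. At an adjusted p under 0.05 in limma the order did not turn, with 14 genes of this class called higher and 46 lower. In that class 552 genes had a ratio over 1.5 toward fiber and 169 toward epidermal cells. Above 500 FPKM, 10 of 260 genes were higher and 43 lower at the limit of P. The median log2 change there was 0.53, and 94 genes had a ratio over 1.5 toward fiber against 59 toward epidermal cells. Between 50 and 100 FPKM, 139 of 1581 genes were higher and 171 lower at the limit of P. The median log2 change of that class was 0.22, with 314 genes past the ratio toward fiber and 249 toward epidermal cells. FPKM is a share of each library, so a change per cell and a change relative to the other transcripts cannot be told apart, and neither can fewer cells of a type and less RNA per cell.

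**Figure D2:**
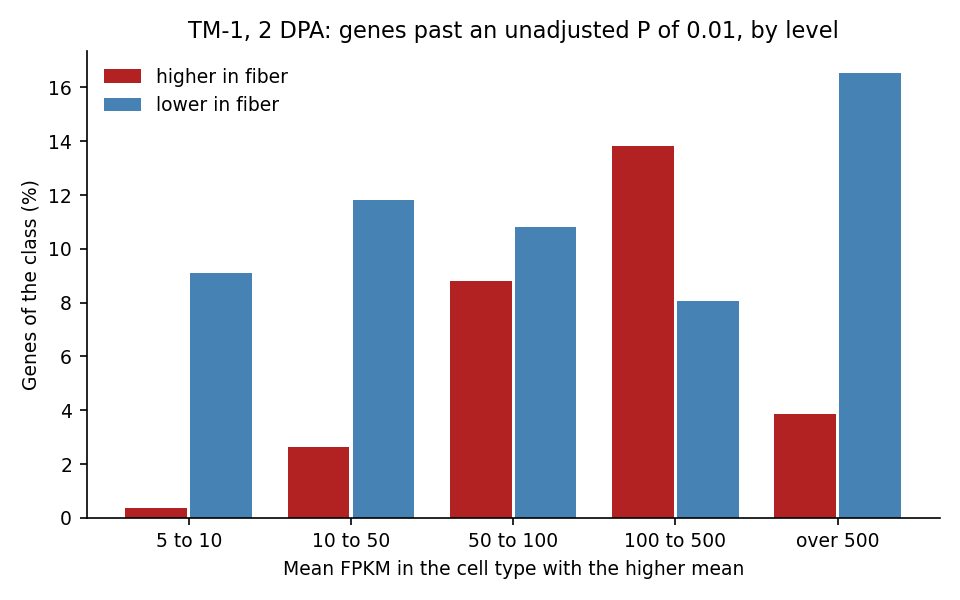
Percentage of genes past an unadjusted P of 0.01, 5 FPKM and a ratio of 1.5 (vertical axis) in classes of the mean FPKM of the higher cell type (horizontal axis), TM-1 at 2 DPA. Bars give genes higher (red) and lower (blue) in fiber, and red exceeds blue only between 100 and 500 FPKM, at 13.8% against 8.07%.

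The most abundant transcripts of fiber cells, chosen here after their values were seen, mostly had a higher mean in fiber without passing the test. Ranking by the fiber level itself favours this direction, so it is not a result about abundant genes. Gohir.D07G160800 had 12843 and 12610 FPKM in fiber and 8968 and 5090 in epidermal cells, against 2859 and 1197 in epidermal cells of 0 DPA. Gohir.D04G037100 had 6525 and 7408 FPKM in fiber and 3974 and 3161 in epidermal cells. In both genes the fiber libraries lay above the epidermal ones, and the adjusted p of limma was 0.58 and 0.39. The limma SE behind these values draws also on the spread of other genes of like level, not on these replicates alone. In the orthologs with 16 libraries the adjusted p of limma was 0.74 and 0.062. Gohir.D10G116200 and its neighbour by ID, Gohir.D10G116300, were both among the 10 highest. Gohir.D10G116200 had 3226 and 5389 FPKM in fiber and 1749 and 1728 in epidermal cells, but only 115 and 120 in epidermal cells of 0 DPA (adjusted p = 0.13 for fiber against epidermal cells of 2 DPA). Gohir.1Z049357, which took the highest level of all genes in fiber replicate 2 and epidermal replicate 1, was at 12415 and 19025 FPKM in fiber and 25246 and 29007 in epidermal cells (adjusted p = 0.81). Gene names for IDs outside the MYB and ARF lists were not used here, so no function is given for them.

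Of the genes called higher in fiber, the 5 with the highest fiber level were named by rule. Gohir.A11G011400 had 291 and 291 FPKM in fiber and 126 and 145 in epidermal cells, a log2 change of 1.10 ± 0.16 (SE, adjusted p = 0.045, limma). Gohir.A05G407900 had 194 and 215 FPKM in fiber and 94.7 and 102 in epidermal cells (log2 change 1.05 ± 0.14). In epidermal cells of 0 DPA, which were not part of this contrast, this gene was at 4.87 and 4.51 FPKM, the widest gap between stages among the 5. Gohir.D11G114000, Gohir.D12G248200 and Gohir.A03G014328 were at 157 to 194 FPKM in fiber and at 73.1 to 99.8 in epidermal cells, with log2 changes of 1.15, 0.93 and 0.90. In each of the 5 genes the lowest fiber library was above the highest epidermal library by more than the difference between replicates of either cell type.

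The 10 genes with the largest rise included 3 that were listed at 0 in both epidermal libraries of 2 DPA, so no fold is given for them. Gohir.A13G176050 had 28.7 and 116 FPKM in fiber, and 32.3 and 67.2 in epidermal cells of 0 DPA. Gohir.A05G416101 had 9.14 and 8.53 FPKM in fiber, and Gohir.D11G224100 7.04 and 6.13. The 8.53 FPKM of Gohir.A05G416101 in fiber replicate 2 was also the exact value of Gohir.D06G142066 there, so it may stand for few fragments. All 3 were over 0 in both epidermal libraries of 0 DPA; an estimate of 0 and an absent transcript cannot be told apart in these files. Gohir.A03G202400 had 10.8 and 17.9 FPKM in fiber and 0 and 0.706 in epidermal cells, and was listed at 0 at 0 DPA. Gohir.A09G221350 had 30.1 and 20.9 FPKM in fiber and 2.12 and 4.15 in epidermal cells, 8.15-fold higher in the means.

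The other 5 genes with the largest rise were all well above 0 in each library of 2 DPA. Gohir.A05G213600 had 16.5 and 15.6 FPKM in fiber and 3.15 and 2.89 in epidermal cells, 5.32-fold higher (log2 change 2.09 ± 0.26, SE). Gohir.A07G112000 had 141 and 166 FPKM in fiber and 45.0 and 51.6 in epidermal cells, 3.18-fold higher, and was at 10.8 and 12 at 0 DPA. Gohir.A02G073300 had 75.3 and 63.9 FPKM in fiber and 22.0 and 18.9 in epidermal cells. Gohir.A05G262300 was at 51.2 and 57.8 FPKM in fiber and at 18.2 and 15.7 in epidermal cells, but at 0.839 and 0.604 in epidermal cells of 0 DPA. Gohir.A10G167400 had 29.3 and 29.7 FPKM in fiber and 9.57 and 8.46 in epidermal cells. For these 5 genes the adjusted p of limma lay between 0.025 and 0.035.

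The genes with the largest fall were led by transcripts that were not listed at all in fiber. Gohir.D10G095500 was at 0 in both fiber libraries and at 6625 and 33052 FPKM in epidermal cells, the highest value of any gene in epidermal replicate 2, yet it was also at 0 in both epidermal libraries of 0 DPA and in both cell types of 3-79. In MD17 epidermal cells of 2 DPA it was at 0 and 4708 FPKM, so its level varied widely between replicates of 1 group. Gohir.A06G180400 was at 0 in both fiber libraries and at 760 and 168 FPKM in epidermal cells, and was again listed at 0 at 0 DPA and in both cell types of 3-79. Gohir.D01G221950, Gohir.D11G199000 and Gohir.D10G231380 shared this pattern in TM-1, with 0 in fiber and at 0 DPA and 26.8 to 93.5 FPKM in epidermal cells of 2 DPA. Of these, Gohir.D11G199000 was not called in the orthologs with 16 libraries (adjusted p = 0.18, limma). It was at 0 and 138 FPKM in the MD17 replicates of 2 DPA.

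Other genes at 0 in fiber were present in the epidermal layer at both stages. Gohir.D09G025901 was at 0 in both fiber libraries and at 259 and 260 FPKM in epidermal cells, and still higher at 0 DPA, with 4285 and 3369 FPKM. Its adjusted p in limma was 0.000457. Gohir.A09G040900 was at 0 in fiber, at 84.4 and 84.1 FPKM in epidermal cells and at 1573 and 441 at 0 DPA. Gohir.A10G047700 was at 0 in fiber, at 37.8 and 19.8 FPKM in epidermal cells and at 19.7 and 23.5 at 0 DPA. In all, 39 genes were at 0 in both fiber libraries and over 5 FPKM in both epidermal libraries of 2 DPA, and 17 of these were over 5 FPKM in both libraries of 0 DPA as well. The reverse held for 11 genes, of which 3 were over 5 FPKM in both libraries of 0 DPA. Some of these values may stand for few fragments: Gohir.A11G023050 and Gohir.D01G113350 shared exactly 6.74 and 6.58 FPKM in the epidermal libraries.

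Other genes called lower were over 0 in both fiber libraries. Gohir.D02G090200 had 3.40 and 2.41 FPKM in fiber and 110 and 104 in epidermal cells, 36.8-fold lower in fiber (log2 change -4.80 ± 0.22, SE, adjusted p = 0.00559, limma). Gohir.A07G182400 had 0.0689 and 0.366 FPKM in fiber and 52.8 and 26.1 in epidermal cells. Among the genes called lower, 4 of the 5 with the highest epidermal level remained well expressed in fiber, the exception being Gohir.D10G095500. Gohir.A13G013600 had 61.4 and 28.8 FPKM in fiber and 971 and 751 in epidermal cells, 19.1-fold lower in fiber. Gohir.D03G128700 had 184 and 208 FPKM in fiber and 653 and 653 in epidermal cells, 3.33-fold lower. Gohir.A05G099100 and Gohir.A13G169300 were at 151 to 184 FPKM in fiber and at 484 to 643 in epidermal cells, with log2 changes of -1.68 and -1.76.

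**Figure D3:**
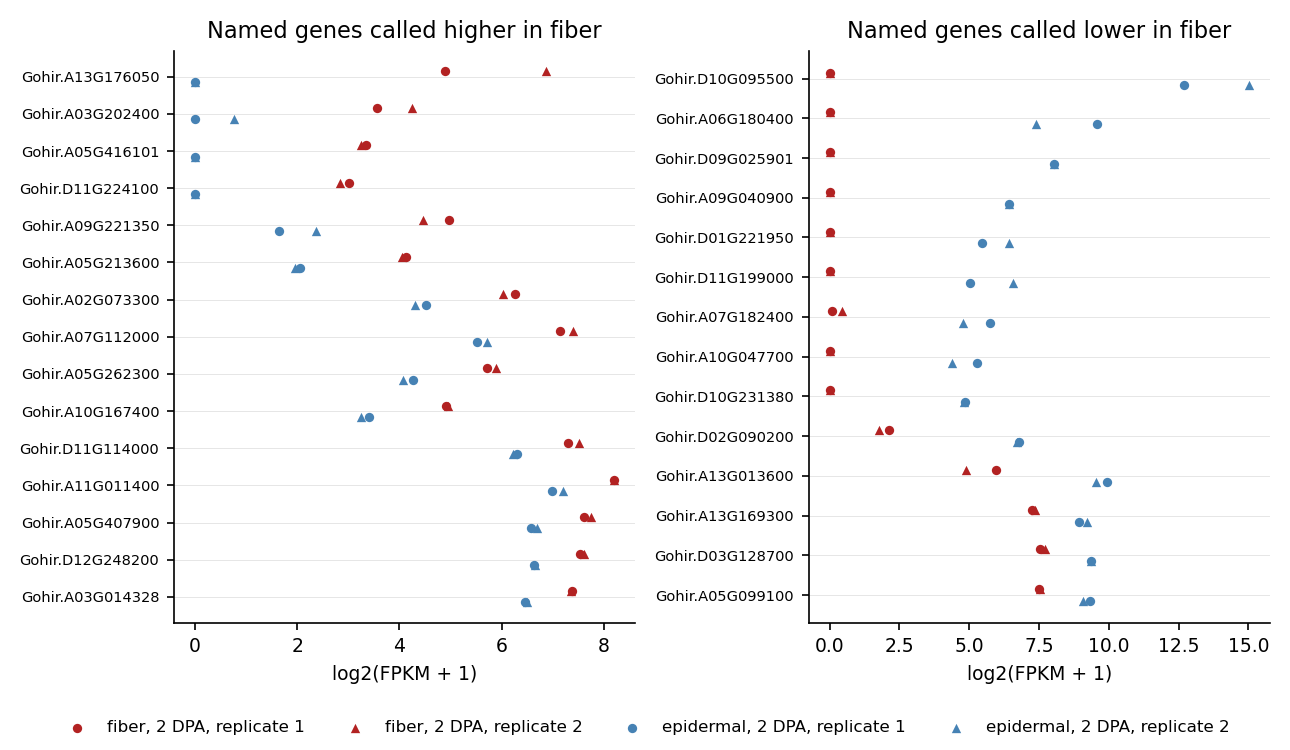
Level of each named gene in each TM-1 library of 2 DPA (horizontal axis, log2(FPKM + 1)), fiber in red above epidermal cells in blue, with circles for replicate 1 and triangles for replicate 2. Genes called higher in fiber are on the left and genes called lower on the right, where 8 of the 14 genes sit at 0 in both fiber libraries.

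The MYB genes drawn in the phylogenetic tree of the study lay on both sides of 0. The study drew them largely from genes changed in fiber of these samples, beside others known from fibers, so the direction of the 20 genes is not independent evidence. None of the 20 was called higher at an adjusted p under 0.05 and 2 were called lower, while 5 were higher and 7 lower at an unadjusted p under 0.05, beside 5.08% and 14.6% of all tested genes. At an unadjusted P of 0.01 with the FPKM and ratio limits, 2 were higher and 5 lower, against 1.25% and 4.45% of all tested genes. Of the genes with an ortholog and over 5 FPKM, the level a call needs, 2.77% were higher and 10.7% lower at this limit. In the orthologs with 16 libraries, 1 was called higher and 4 lower, beside 0.92% and 4.32% of all orthologs. The median log2 change of the list was 0.11, with 11 genes above 0 and 9 below, beside -0.12 over all tested genes.

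GhMYB25 and GhMYB109, the MYB genes taken here as fiber markers, had higher values in fiber, short of the adjusted threshold. GhMYB25, named as the cotton homolog of Arabidopsis MYB106 and described by the study as a regulator of fiber cell development, is listed under a pair of IDs. Gohir.D04G191100 had 281 and 260 FPKM in fiber and 157 and 154 in epidermal cells, with no overlap and a log2 change of 0.79 ± 0.19 (SE, adjusted p = 0.10, limma). Gohir.1Z049716 had 196 and 199 FPKM in fiber and 116 and 115 in epidermal cells (log2 change 0.77 ± 0.17, adjusted p = 0.088), and it was called higher in the orthologs with 16 libraries (adjusted p = 0.012). Epidermal cells of 0 DPA had 211 and 271 FPKM of Gohir.D04G191100, while fiberless MD17 had 12.1 and 14.4 FPKM at 2 DPA and 0.196 and 1.30 at 0 DPA. GhMYB109, another cotton MYB of fiber initials, was grouped with MYB66, which sets cell fate in the root epidermis of Arabidopsis. Its ID Gohir.D04G055100 had 8.77 and 8.95 FPKM in fiber and 4.45 and 1.5 in epidermal cells (adjusted p = 0.19), and Gohir.A05G359100 had 10.1 and 15.1 FPKM in fiber and 6.05 and 7.82 in epidermal cells (adjusted p = 0.38). The 4 IDs of these fiber markers were thus higher in both fiber libraries than in both epidermal libraries, but none was absent from the epidermal cells, and only the GhMYB25 pair was past an unadjusted P of 0.01. Markers of other ovule cell types could not be examined, because the IDs carry no annotation here.

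No gene of the other MYB groups with values above 0 passed the adjusted threshold. The 4 genes grouped with MYB4, a repressor of phenylpropanoid synthesis in Arabidopsis, had log2 changes of 0.10 to 1.17 and 3 of them did not overlap, with a lowest adjusted p of 0.14. Among these 3, Gohir.A11G173900 had 14.8 and 13.2 FPKM in fiber and 8.36 and 8.51 in epidermal cells, a gap wider than the difference between replicates of either cell type. GhMYB2 also carries a name from earlier cotton studies in the tree but was not among the fiber markers used here. Its IDs, Gohir.A08G168600 and Gohir.D08G187100, had log2 changes of 0.30 and 0.12. Gohir.D08G187100 overlapped, with 22.0 and 21.1 FPKM in fiber and 14.3 and 26.9 in epidermal cells. Gohir.D04G049200, grouped with MYB96, had 7.56 and 11 FPKM in fiber and 2.34 and 6.20 in epidermal cells, with an adjusted p of 0.31.

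The 2 MYB genes called lower were homologs of MYB16, which acts on cuticle formation and the shape of epidermal cells in Arabidopsis. The other MYB genes lower in fiber were grouped with MYB16, MYB17, MYB6 or MYB73 and were not called. Gohir.A10G154700 had 2.59 and 2.70 FPKM in fiber and 17.7 and 19.0 in epidermal cells, a log2 change of -2.41 ± 0.30 (SE, adjusted p = 0.034, limma). Gohir.A05G368200 had 6.03 and 7.09 FPKM in fiber and 19.0 and 26.6 in epidermal cells, a log2 change of -1.64 ± 0.25 (adjusted p = 0.048). The other MYB16 homolog, Gohir.D10G111200, had 0.944 and 1.69 FPKM in fiber and 5.43 and 6.47 in epidermal cells, with an adjusted p of 0.10. MYB16 and MYB106 are closely related in Arabidopsis, and here the GhMYB25 genes lay higher and the MYB16 homologs lower in fiber. In MD17 epidermal cells of 2 DPA, Gohir.A10G154700 was at 15.7 and 20.4 FPKM, close to the TM-1 epidermal level. Gohir.D08G151700 (MYB17) and Gohir.D11G168000 (MYB6) lay lower in fiber without overlap, with adjusted p-values of 0.062 and 0.077, and passed the test in the orthologs with 16 libraries.

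Of the 20 ARF genes drawn in the other tree of the study, 19 had a log2 change below 0 in fiber. The study also chose these genes for their change in fiber, so the direction is again not independent. At an adjusted p under 0.05, 1 gene was called lower and none higher, and at an unadjusted p under 0.05 17 were lower and 0 higher, beside 14.6% and 5.08% of all tested genes. At an unadjusted P of 0.01 with the FPKM and ratio limits 13 were lower, beside 4.45% of all tested genes. Of the genes with an ortholog and over 5 FPKM, the level a call needs, 10.7% were lower at this limit. In the orthologs with 16 libraries 14 were called lower at an adjusted p under 0.05, beside 4.32%. The median log2 change of the list was -1.10, beside -0.12 over all tested genes, and in 18 of 20 genes the fiber and epidermal libraries did not overlap, all lower in fiber, beside 31.5% of all tested genes.

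The lower values spanned ARFs of unlike roles. Of the ARFs that act as repressors in Arabidopsis, the ARF2 homolog Gohir.D11G041800 had 12.5 and 10.1 FPKM in fiber and 31.3 and 37 in epidermal cells, a log2 change of -1.51 ± 0.18 (SE, adjusted p = 0.033, limma), and was the gene called. The 5 ARF2 homologs had a median log2 change of -1.07, and the other repressors of the list, homologs of ARF3, ARF10 and ARF16, lay between -1.48 and -1.10. Of the ARFs that act as activators, the homologs of ARF5, which patterns the vascular tissue and the embryo, had log2 changes of -1.58 and -1.90, and those of ARF6, which acts in flower maturation, -1.56 and -1.83. The ARF8 homologs had log2 changes of -0.50 and -0.91, with adjusted p-values of 0.60 and 0.22. Of the homologs of ARF19, an activator in root and leaf auxin responses, ARF19b, ARF19c and ARF19d had log2 changes of -0.63, -0.85 and -1.11, none past the adjusted threshold. Gohir.D07G016200 (ARF19d) was at 2.42 and 1.81 FPKM in fiber and 5.39 and 5.97 in epidermal cells, while Gohir.A05G408200 (ARF19a) had 13.8 and 18.7 FPKM in fiber and 11 and 13.8 in epidermal cells, overlapping, with a log2 change of 0.35 ± 0.35 (adjusted p = 0.64).

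**Figure D4:**
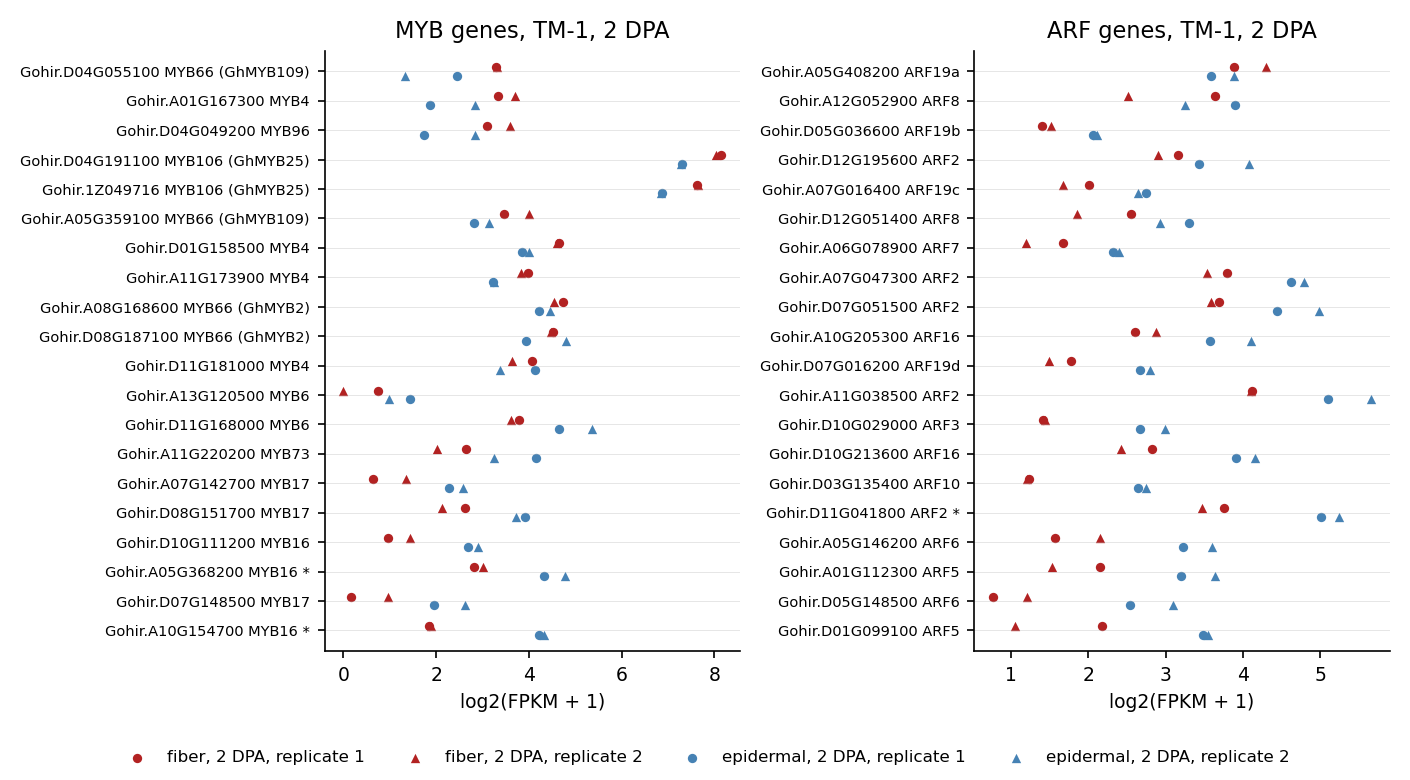
Level of the 20 MYB genes (left) and the 20 ARF genes (right) in each TM-1 library of 2 DPA (horizontal axes, log2(FPKM + 1)), fiber in red above epidermal cells in blue, circles for replicate 1 and triangles for replicate 2, ordered by log2 change. An asterisk marks the 2 MYB genes and the 1 ARF gene called lower at an adjusted p under 0.05, and the fiber symbols of the ARF genes lie left of the epidermal symbols of the same replicate in all rows but ARF19a.

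Both subgenomes took part. On the A subgenome 27 genes were called higher and 324 lower in fiber, and on the D subgenome 13 and 329. Relative to the genes over 5 FPKM, the higher calls made up 0.237% on A and 0.111% on D, and the lower calls 2.85% and 2.81%. At an unadjusted P of 0.01, 3.23% of these genes were higher on A and 2.71% on D, and 10.2% and 10.8% were lower. Chromosome D04 had the smallest share of lower genes at this limit, 6.34% of its genes over 5 FPKM, and D05 the largest, 12.9%. These shares were not tested against each other. Genes without an ortholog in the table of 52514 pairs made up 18 of the 40 genes called higher and 130 of the 654 called lower, and 14748 of the 54618 tested.

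The line 3-79, whose fiber and epidermal cells were sampled in the same way, shows in independent libraries how far these changes were shared. Over all orthologs, 1273 were called higher (2.99%) and 3377 lower (7.92%) in fiber of 3-79. Of the 22 TM-1 genes called higher with an ortholog, all detected in 3-79 at 2 DPA, 19 were also called higher in 3-79 and 0 lower. Of the 524 called lower, 517 were detected in 3-79, 434 of these were also called lower and 6 were called higher. The median log2 change in 3-79 was 1.37 for the TM-1 calls that were higher and -2.12 for those that were lower, beside -0.22 over all detected orthologs. At an unadjusted P of 0.01 in TM-1, 264 of 488 detected genes (54.1%) were called higher in both lines and 1308 of 1904 (68.7%) lower in both. Among the named genes, Gohir.A07G112000 had a log2 change of 1.46 in 3-79, Gohir.A05G407900 2.04 and Gohir.A13G169300 -1.79, all called in 3-79 in the direction of the TM-1 call. In the fit on 16 libraries, from which the 3-79 calls come, 16 of the 22 higher and 508 of the 524 lower TM-1 calls were also called in TM-1, and Gohir.A05G407900 was not (adjusted p = 0.061).

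The fiber markers and the ARF genes were also measured in 3-79. In 3-79 the GhMYB25 ID Gohir.D04G191100 had 221 and 242 FPKM in fiber and 87.5 and 86.9 in epidermal cells (adjusted p = 0.00452, limma), and the GhMYB109 ID Gohir.D04G055100 had 7.96 and 19.5 FPKM in fiber and 1.35 and 0.963 in epidermal cells (adjusted p = 0.00709). Of the 20 ARF genes, 15 were called lower and 1 higher in 3-79, beside 7.92% and 2.99% of all orthologs. The higher gene was ARF19a, with 27.4 and 29.1 FPKM in fiber and 10.2 and 9.43 in epidermal cells. The difference between the lines in the change of ARF19a was not past the test (adjusted p = 0.43 for the interaction), and no gene of either list passed it (lowest adjusted p = 0.35).

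A difference between the lines in how fiber changed against epidermal cells was found for 133 of the 42627 orthologs tested (0.312%, interaction, adjusted p under 0.05). Of the 133, 102 were over 0 in a TM-1 library, and 7 of the 102 were at 0 in 3-79 at 2 DPA. The rest of the 133 were listed at 0 in all TM-1 libraries. Genes at 0 in 1 line show a change in the other line only. Among the 133 were 18 TM-1 calls, all lower in TM-1 fiber. In 6 of the 18 the directions were opposite, each called lower in TM-1 fiber and higher in 3-79 fiber. Gohir.D12G059800 had 10.3 and 11.7 FPKM in fiber of TM-1 and 57.0 and 59.0 in its epidermal cells, whereas it had 1458 and 999 FPKM in fiber of 3-79 and 262 and 214 in its epidermal cells. Gohir.D08G195100 had 7.38 and 5.42 FPKM in fiber of TM-1 and 84.3 and 92.9 in its epidermal cells, and 1053 and 721 FPKM in fiber of 3-79 against 318 and 263 in its epidermal cells. For both genes the fiber libraries of TM-1 were the lowest and those of 3-79 the highest of the 4 groups. MD17 epidermal cells of 2 DPA, with 233 and 275 FPKM for Gohir.D08G195100, lay near epidermal cells of 3-79.

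The other genes of opposite direction had the same profile. Gohir.D07G125100 had 10.3 and 7.63 FPKM in TM-1 fiber, 86.9 and 95.6 in TM-1 epidermal cells, 1210 and 744 in 3-79 fiber and 347 and 212 in 3-79 epidermal cells. Gohir.D10G144400 had 3.89 and 2.70 FPKM in TM-1 fiber, 47.5 and 43.1 in TM-1 epidermal cells, 682 and 395 in 3-79 fiber and 137 and 90.2 in 3-79 epidermal cells. Gohir.A08G176400 and Gohir.D05G170300 were at 6.46 and 2.85 and at 30.6 and 32.5 FPKM in TM-1 fiber, and at 818 and 476 and at 1075 and 785 in 3-79 fiber. All 6 interactions stayed past the threshold when each of the 8 libraries of 2 DPA was left out. Reads of TM-1 and 3-79 were mapped to different genomes, so an effect of the line and of its reference cannot be told apart.

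**Figure D5:**
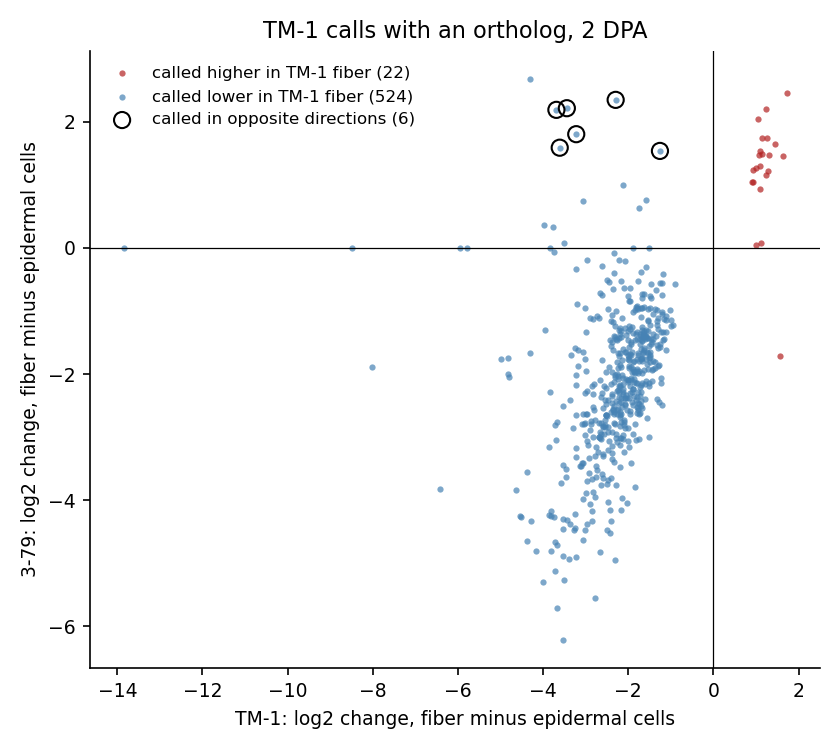
Change in fiber against epidermal cells of 2 DPA in 3-79 (vertical axis) by the change in TM-1 (horizontal axis), both log2(FPKM + 1), for the 22 higher (red) and 524 lower (blue) TM-1 calls with an ortholog. Circles mark the 6 genes called lower in TM-1 fiber and higher in 3-79 fiber.

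The called genes were also followed in samples that the contrast did not use. The 22 genes called higher with an ortholog had a median of 99.4 and 99.1 FPKM in the TM-1 fiber libraries, 42.9 and 45.3 in TM-1 epidermal cells of 2 DPA and 18.4 and 17.3 at 0 DPA. In epidermal cells of fiberless MD17 their median was 7.53 and 8.31 FPKM at 2 DPA and 3.54 and 3.70 at 0 DPA, below every TM-1 group. The 524 genes called lower had a median of 3.47 and 3.05 FPKM in TM-1 fiber and 19.8 and 20.3 in TM-1 epidermal cells of 2 DPA, close to 19.9 and 21.5 at 0 DPA and under the 32.5 and 30.7 of MD17 at 2 DPA. These medians compare genes picked for their TM-1 levels at 2 DPA and carry no test.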

How the data were processed

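Epidermal and fiber cells were collected by LCM, and paired-end mRNA libraries were sequenced. According to the methods and the labels, the authors mapped reads of TM-1 and MD17 to the *G. hirsutum* TM-1 genome v2.0 and reads of 3-79 to a *G. barbadense* genome with TopHat2 2.1.1, kept uniquely mapped reads, and deposited FPKM per gene and library from Cufflinks 2.2.1. Unique mapping can lower genes whose homoeologs or copies are nearly identical, and how reads were counted by strand is not given in the sources used here.

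From these values log2(FPKM + 1) was computed and limma 3.58.1 (R 4.3.3, lmFit, eBayes with trend) was fitted to the 3 group means of the 6 TM-1 libraries, over the 54618 genes above 0 in any of them. Each two-sided contrast was adjusted by Benjamini-Hochberg. Genes were called at an adjusted p under 0.05, a mean over 5 FPKM and a ratio over 1.5; an unadjusted P of 0.01, as in the methods of the study but from limma and not ANOVA, was an alternative. 3-79 and the interaction were fitted to all 16 libraries of the table of 52514 orthologs. Tables of each other line were not used. Named genes were, among the calls without overlap, the 10 with the largest change in each direction and the 5 with the highest level in fiber (higher) or epidermal cells (lower). IDs of the MYB and ARF genes are those of the study's trees, and the homolog beside each ID was read from the drawn trees. Lists by gene description could not be built, since the reference table carries no such IDs, and therefore no sequence is printed. Members and lists were chosen with earlier results of these data known. The procedure was tested on simulated data. Alternatives were another pseudocount, filters, limits, rescaling, only the libraries compared, the replicate number as a block and leaving out each library. Plots used matplotlib 3.10.9 in Python 3.11.15.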

Additional observations from a re-analysis of the deposited data

Results flagged for a closer look

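The change in fiber against epidermal cells differed between TM-1 and 3-79 in 18 genes called in TM-1, all by an interaction at an adjusted p under 0.05 in limma. Values are the log2 change in TM-1 minus that in 3-79. In the 6 genes with opposite calls it was -4.64 for Gohir.D12G059800, -5.20 for Gohir.D08G195100, -5.66 for Gohir.D10G144400, -5.02 for Gohir.D07G125100, -5.87 for Gohir.A08G176400 and -2.79 for Gohir.D05G170300. Gohir.D08G098100 (-2.39) and Gohir.D12G173800 (-3.80) were lower in TM-1 fiber and had values above 0 in 3-79 that did not pass the test.

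The fall was larger in 3-79 for 4 genes, Gohir.A12G182200 (1.40), Gohir.D05G097000 (2.08), Gohir.D08G099800 (2.78) and Gohir.D12G185100 (1.40). The other 6 genes were under 3 FPKM in every fiber and epidermal library of 3-79 at 2 DPA, so little change could be measured there: Gohir.A06G043200 (-4.09), Gohir.D05G118350 (-3.84, listed at 0 in all of these libraries), Gohir.D01G023409 (-3.58), Gohir.A01G103200 (-2.33), Gohir.D03G168100 (-4.34) and Gohir.A11G204300 (-2.78). Leaving out each of the 8 libraries of 2 DPA in turn, 11 of the 18 stayed past the threshold in all 8 fits, and all 18 kept their sign.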

How the results depend on the processing

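No called gene that is named or listed reversed its direction under the alternatives run. The libraries of these genes did not overlap between cell types, so leaving out a library or changing the pseudocount could not reverse them. In the alternatives other than leaving out a library, the call was kept in 278 results of these genes and lost in 64. The log2 change of 3 list genes that were not called changed sign when 1 library was left out. That of Gohir.D08G187100 ranged between -0.309 (without epidermal replicate 1) and 0.557, that of Gohir.D11G181000 between -0.278 (without epidermal replicate 2; also below 0 without fiber replicate 1) and 0.47, and that of Gohir.A12G052900 between -1.07 and 0.0588 (without fiber replicate 2). The counts of calls moved widely, and the cause was not tested. With 40 genes higher and 654 lower as reported, there were 78 and 1079 with a pseudocount of 0.1, 0 and 42 with genes at 0 in every library kept (1527 and 3930 at an unadjusted p under 0.05 in limma), 274 and 1898 with only genes of a mean over 1 FPKM, 685 and 2429 at an unadjusted P of 0.01, 2 and 134 with only the 4 libraries compared, and 392 and 1843 in the orthologs with 16 libraries. Leaving out each of the 4 libraries in turn gave 0 genes higher and 0 to 53 lower. The same, added after the data were seen, gave 74 to 275 higher and 918 to 1311 lower in the orthologs, and 230 to 476 higher and 1301 to 1492 lower at an unadjusted P of 0.01.

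Of the TM-1 calls, 33 higher and 679 lower were shared with 3-79 with a pseudocount of 0.1, and 0 to 17 and 0 to 411 when a library was left out, beside 19 and 434. The interaction count of 133 was 32 with only the 8 libraries of 2 DPA and 140 to 422 when a library was left out. The labels do not state that a replicate number pairs samples. With the replicate block 42 genes were higher and 615 lower, of which 22 and 489 were among the reported calls, and replicate differences correlated between groups at 0.056 to 0.11. With 2 libraries a group and no counts, changes under the spread of replicates were not detectable.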

Other observations

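Some genes were at very different levels in replicates of a group. In fiber, 18 genes were over 100 FPKM in 1 replicate and at 0 in the other, against 29 genes in epidermal cells of 2 DPA and 32 in epidermal cells of 0 DPA.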
